A study of Mus musculus with 4 samples.

Results

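Heat shock proteins and endoplasmic reticulum (ER) chaperones were examined as 40 genes, taken as every non-control probe whose gene name in the scanner files is that of a listed gene. They had 77 probes among the 41174 on the array, and 40 of 28482 gene names. In 38 of the 40 genes at least 1 probe was well above background, in each case on all 4 arrays, and these 38 stand among 13062 genes that could be compared. The exceptions were Hspa1b and Hspb1. The 40 genes were divided by role into 8 inducible cytosolic, 6 constitutive cytosolic, 4 mitochondrial, 7 chaperonin and 15 ER genes.

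Chaperones hold unfolded proteins in solution and release them for folding, usually with ATP. When unfolded proteins build up in the cytosol, the transcription factor HSF1 binds heat shock elements and raises the inducible HSP70, HSP110, HSP40 and BAG genes, while the constitutive members keep folding going in unstressed cells. The ER has its own control, the unfolded protein response, in which the sensors IRE1, PERK and ATF6 raise BiP and its partners, partly through ER stress response elements. USP8 is a deubiquitinase known for the sorting of endocytosed receptors.

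The cells were CD4+CD8+ double-positive (DP) thymocytes, sorted from untreated mice aged 6 to 12 weeks, sex-matched littermates per the labels. USP8ff_CD4Cre mice carried loxP-flanked Usp8 alleles and a Cre driven by Cd4 sequences, and USP8ff mice carried the same alleles without Cre. Each genotype had 2 samples, each made from 2 mice, so the p-values below rest on the spread between pools of mice. In the limma fit the spread of each gene is drawn towards that of all genes. A p-value therefore does not measure the spread of that gene alone. No group with Cre alone was among the samples, and Cre and the deletion cannot be told apart. The RNA was hybridised to 1-colour Agilent arrays, all on 1 slide, and levels are given as log2 signal relative to the 75th percentile of the array. Levels of different genes come from different probes and are not set against each other. Differences are USP8ff_CD4Cre minus USP8ff on the log2 scale.

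Between 18533 and 20147 probes per array were well above background. Usp8 itself had levels of -1.03 and -1.23 in the USP8ff_CD4Cre pools, against -0.23 and -0.40 in the USP8ff pools, which left 56.9% of the USP8ff signal (limma adjusted p = 0.60 over all genes). That value comes from a single probe (mm9, chr2:126584363-126584422). Whether the probe lies in the loxP-flanked part was not known, so the value does not give the extent of deletion. All 10 DP-stage marker genes were measured, with mean levels of 4.50 and 4.57 in USP8ff_CD4Cre, against 4.55 and 4.69 in USP8ff. Their median difference was -0.058 with 3 of 10 positive, and the range ran from -0.33 (Rag2) to 0.10 (Dntt). The 10 proliferation genes looked at (Mki67, Top2a, Cdk1 and others) had mean levels of 4.34 and 4.69 in USP8ff_CD4Cre, against 4.15 and 3.97 in USP8ff, with a median difference of 0.51 and 10 of 10 positive. Macrophage and dendritic cell markers averaged -2.47 and -2.33 in USP8ff_CD4Cre, against -2.12 and -2.04 in USP8ff, over 5 of 11 genes measured. Those of NK and innate cells averaged -1.26 and -1.18 in USP8ff_CD4Cre, against -0.73 and -0.51 in USP8ff, over 4 of 7 genes. Of those 4, Nkg7 and Prf1 differed by -2.09 and -0.86, and Gzma and Tbx21 by 0.42 and 0.15. Of the macrophage and dendritic cell genes Csf1r, Adgre1, Itgam, Itgax, C1qa and H2-Aa were not well above background on both arrays of either group. Among the 5 measured, Mpeg1, Cd74, Lyz2 and Cd68 differed by -1.09, -0.45, -0.19 and -0.12, and C1qb by 0.25. Whether proliferation or other cells have a part in the chaperone values was not tested, and in sorted bulk cells a share of cells and an amount of RNA per cell cannot be told apart.

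The promoters of these genes are shown first, for the heat shock and ER stress response elements named above. Windows of 250 bases before and 50 bases after the annotated start were available from RefSeq (GRCm38.p6) for 33 of the 40 genes. A heat shock element was searched as alternating GAA and TTC units, 2 bases apart, in either phase, and an ER stress response element as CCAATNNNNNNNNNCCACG, all on both strands. The 4-unit heat shock element between Hspe1 and Hspd1 is shown because both mitochondrial genes hold it. It lies 89 to 72 bases before the Hspe1 start on chr1:55088053-55088082 (plus strand), and also in the window of a start of Hspd1, which is read the other way. Capitals mark the 4 units and their spacers.
Hspe1 and Hspd1: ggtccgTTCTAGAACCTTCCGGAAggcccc

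An element of 3 units (GAANNTTCNNGAA or TTCNNGAANNTTC) was found in 0.603% of all 32851 promoter windows of this length, and among the chaperone genes in Hsph1, Hspd1 and Hspe1. A pair of units (GAANNTTC or TTCNNGAA, which the longer form contains) was found in 15.1% of all windows. It was in 6 of 7 inducible cytosolic genes with a window (Hspa1a, Hspa1b, Hsph1, Hspb1, Dnaja1 and Bag3), in 2 of 3 mitochondrial and 2 of 6 chaperonin genes (Cct2 and Cct5), and in 0 of 3 constitutive cytosolic and 0 of 14 ER genes. The ER stress response element was found in 0.119% of all windows, and in 6 of 14 ER genes (Hspa5, Hsp90b1, Calr, Canx, Pdia6 and Dnajc3). None of the other classes held it. Stretches of the ER genes are given in the direction of the gene, with the element in capitals. They show the element in its forward form and, in Calr, in its reverse form. The Hspa5 stretch is chr2:34772001-34772067 (plus strand), that of Hsp90b1 chr10:86705614-86705680, that of Calr chr8:84847051-84847117 and that of Canx chr11:50325776-50325842 (all minus strand).
Hspa5: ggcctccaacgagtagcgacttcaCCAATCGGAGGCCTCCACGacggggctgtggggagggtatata
Hsp90b1: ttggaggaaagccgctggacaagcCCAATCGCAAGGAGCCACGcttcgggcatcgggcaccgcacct
Calr: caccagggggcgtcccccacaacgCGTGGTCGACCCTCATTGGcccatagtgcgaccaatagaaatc
Canx: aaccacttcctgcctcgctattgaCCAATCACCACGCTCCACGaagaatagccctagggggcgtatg

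Across the 38 chaperone genes, 35 had a positive difference (92.1%), where 54.8% of all 13062 genes did. The median was 0.14, a fold of 1.1, against 0.021 over all genes, and the range ran from -0.18 (Xbp1) to 0.43 (Sdf2l1). None passed the test: limma called 0 of 13062 genes at an adjusted p under 0.05 (0% of all genes), and the smallest adjusted p among the chaperones was 0.66. At an unadjusted p under 0.05, 2 chaperones were higher in USP8ff_CD4Cre (Hspa9 and Sdf2l1), where 3.97% of all genes were, and 0 were lower, where 3.46% were. Both USP8ff_CD4Cre arrays were above both USP8ff arrays in 12 of 38 (24.3% of all genes). Both were below them only in Xbp1 (16.3% of all genes).

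The median moved most with USP8ff replicate 1. The highest of the 4 values was in USP8ff_CD4Cre replicate 2 for 26 of the 38 chaperones (68.4%, where 31.7% of all genes were). The lowest was in USP8ff replicate 1 for 28 (73.7%, where 29.7% of all genes were). Without USP8ff replicate 1 the median of the 38 was 0.033, and 22 were positive (57.9%, against 52.3% of all genes). Without USP8ff replicate 2 it was 0.22, with 35 positive (57.2% of all genes positive). Leaving out USP8ff_CD4Cre replicate 1 gave 0.22 with 34 positive, and leaving out USP8ff_CD4Cre replicate 2 gave 0.091 with 29 positive (53.7% and 56% of all genes). Replicate 1 was below replicate 2 in 32 of 38 chaperones in USP8ff_CD4Cre and in 31 of 38 in USP8ff. Leaving out USP8ff replicate 1 thus sets both USP8ff_CD4Cre pools against the USP8ff pool that was the higher one in most chaperones. A shift shared by same-numbered pools would by itself lower the difference in that fit, and was not tested. Of the 38, 19 were positive in the full fit and in all 4 fits with an array left out (50%, against 31.7% of all genes), and Dnajb1 and Xbp1 were negative in all of them. Dnajb1 was at only -0.0051 without USP8ff replicate 1. Under quantile normalization between arrays 31 of 38 were positive, with a median of 0.07 (50.7% of all genes positive).

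**Figure D1:**
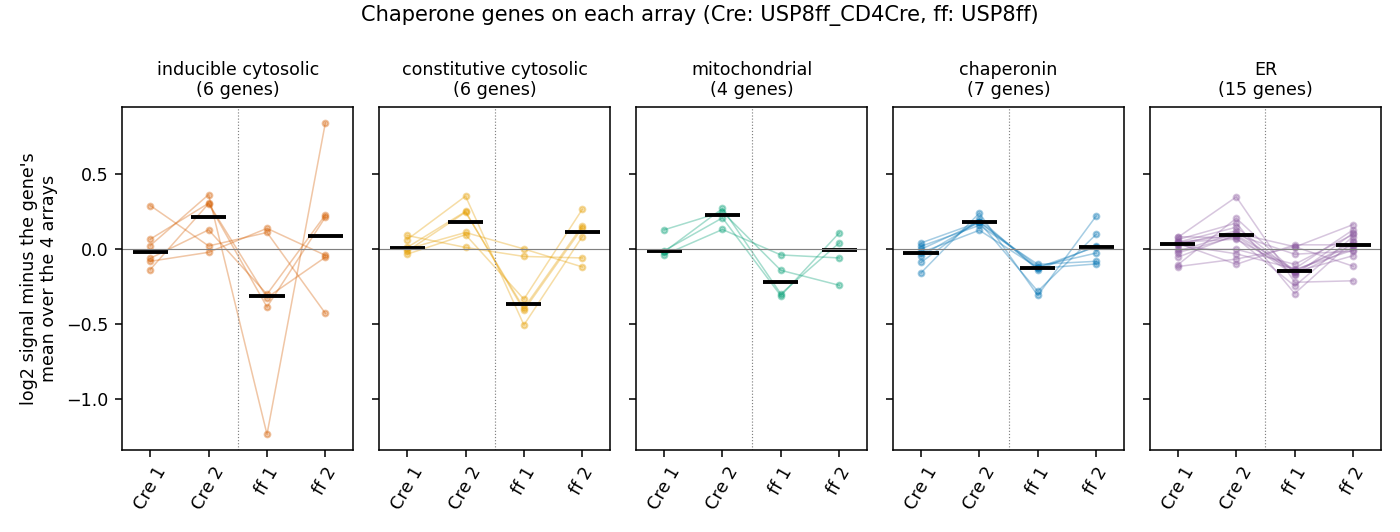
Levels of the 38 measured chaperone genes on each array, one panel per class; the vertical axis is the log2 signal minus the gene's own mean over the 4 arrays, thin lines join the values of a gene and black bars are the median of the class. Cre 1 and Cre 2 are the USP8ff_CD4Cre arrays and ff 1 and ff 2 the USP8ff arrays; the class medians on ff 1 lie between -0.36 and -0.13, below those of the other 3 arrays in every panel.

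The inducible cytosolic genes had a median difference of 0.24 over 6 measured genes, 5 of them positive. Without USP8ff replicate 1 the median was -0.07 and 2 of 6 were positive, and without USP8ff replicate 2 it was 0.40. The widest movement was in Hsph1, the HSP110 protein that exchanges nucleotide on HSP70. Its probe (mm9, chr5:150419426-150419485) had levels of 4.59 and 4.93 in USP8ff_CD4Cre, against 3.33 and 5.41 in USP8ff. Both USP8ff_CD4Cre values lay between the USP8ff values, and the difference was 0.39 ± 0.67 (SE, limma adjusted p = 0.90). USP8ff replicate 1 was 2.08 below USP8ff replicate 2, a 4.22-fold gap inside 1 genotype. Only 6 of the 13062 genes had a more negative gap (0.0459%). The difference was -0.65 without USP8ff replicate 1 and 1.43 without USP8ff replicate 2, so the 2 control pools give opposite answers for Hsph1.

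Hspa1a encodes the classic stress-induced HSP70. Its level was -2.81 and -3.08 in USP8ff_CD4Cre, against -2.99 and -3.53 in USP8ff (mm9, chr17:35106766-35106825, minus strand). The groups overlapped, with a difference of 0.31 ± 0.21 (limma adjusted p = 0.74), and here USP8ff replicate 1 was the higher control pool. A second Hspa1a probe, which overlaps the first by 30 bases and was above background on 3 arrays, differed by -0.059, so the direction rests on the choice of probe. Hspa1a is close to the floor of the assay, since the lowest signals well above background were -4.05 and -4.49 on the USP8ff_CD4Cre arrays and -3.87 and -4.19 on the USP8ff arrays.

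Hspa1b, its neighbouring copy, could not be measured. The array design assigns its 2 probes to transcripts of both Hspa1a and Hspa1b, so they do not tell the 2 genes apart. Their sequences are shown because they are shared in this way. The first is at chr17:35094200-35094259 and the second at chr17:35095608-35095667 (mm9, minus strand).
Hspa1b probe at 35094200: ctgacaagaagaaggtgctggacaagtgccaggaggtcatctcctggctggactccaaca
Hspa1b probe at 35095608: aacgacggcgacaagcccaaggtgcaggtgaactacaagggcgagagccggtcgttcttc

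The first probe was well above background on 2 arrays, 1 of each genotype, with -3.87 and -3.74 in USP8ff_CD4Cre, against -3.40 and -4.68 in USP8ff. The second was above background on 0 arrays. The single probe of Hspb1, the small heat shock protein HSP27, was also above background on 0 arrays.

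Bag3, which joins HSP70 clients to selective autophagy, was at -1.02 and -0.78 in USP8ff_CD4Cre, against -1.41 and -1.14 in USP8ff. It was the one inducible gene whose groups did not overlap, with a difference of 0.37 ± 0.15 (limma adjusted p = 0.67). It stayed positive with each array left out. Hsp90aa1, the stress-responsive cytosolic HSP90, had 6.85 and 7.29 in USP8ff_CD4Cre, against 6.60 and 7.20 in USP8ff. Each genotype spanned more than the difference of 0.17 ± 0.26, which turned to -0.14 when USP8ff replicate 1 was left out and to -0.058 when USP8ff_CD4Cre replicate 2 was. Dnaja1, an HSP40 that hands substrates to HSP70, had 5.50 and 5.69 in USP8ff_CD4Cre, against 5.26 and 5.79 in USP8ff, a difference of 0.073 ± 0.20 that was -0.19 without USP8ff replicate 1. All 3 of its probes were lower in USP8ff replicate 1 than in replicate 2. Dnajb1, the stress-inducible HSP40, went the other way, with 6.71 and 6.77 in USP8ff_CD4Cre, against 6.93 and 6.75 in USP8ff. Its difference was -0.10 ± 0.12 and negative on both probes. The groups overlapped, and the difference was only -0.0051 without USP8ff replicate 1.

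**Figure D2:**
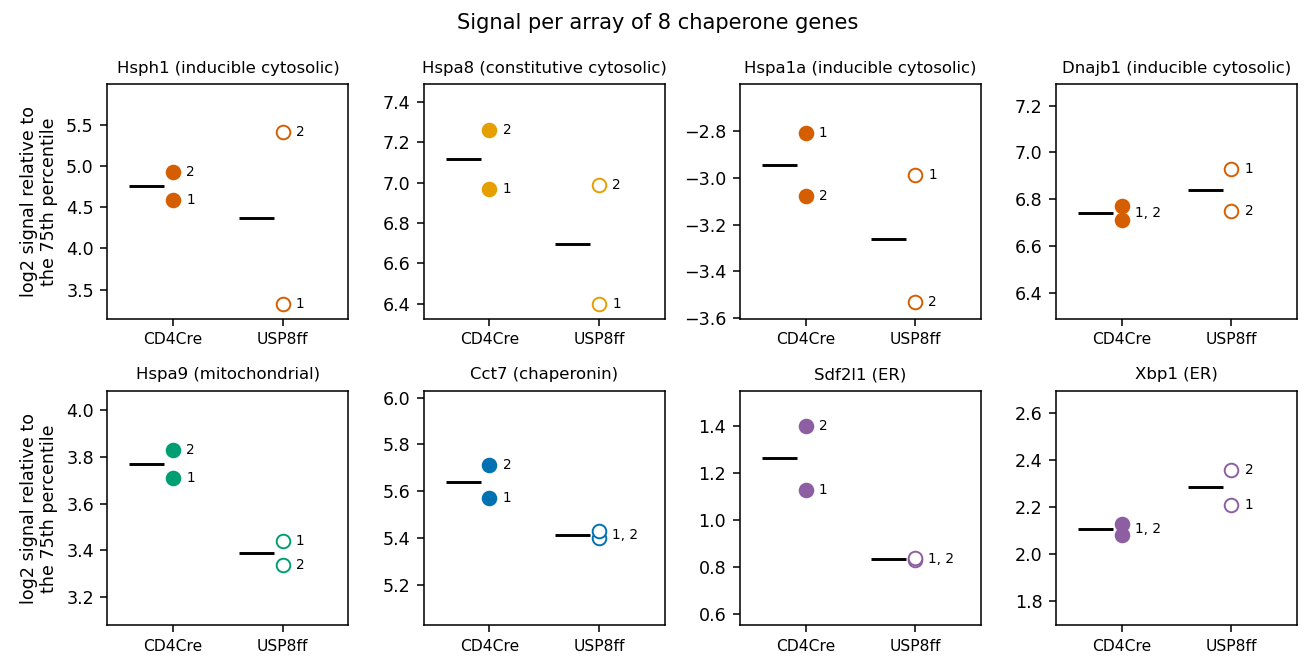
Level of 8 chaperone genes on each array, in log2 signal relative to the 75th percentile of the array; CD4Cre is USP8ff_CD4Cre, filled points are its pools, open points the USP8ff pools, digits the replicate and bars the mean of the 2 pools, with a separate vertical range in each panel. In Hsph1 the USP8ff pools lie at 3.33 and 5.41 on either side of both USP8ff_CD4Cre pools, while in Hspa9, Cct7, Sdf2l1 and Xbp1 the genotypes do not overlap.

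The constitutive cytosolic genes had a median of 0.18 with 6 of 6 positive. Without USP8ff replicate 1 it was 0.055 with 3 of 6, and without USP8ff replicate 2 it was 0.44. Hspa8, the HSC70 that folds proteins and uncoats clathrin in resting cells, had 6.97 and 7.26 in USP8ff_CD4Cre, against 6.40 and 6.99 in USP8ff. The lower USP8ff_CD4Cre pool was just under the higher USP8ff pool, and the difference of 0.42 ± 0.23 did not pass (limma adjusted p = 0.70). It was 0.12 without USP8ff replicate 1. Hsp90ab1, the constitutive HSP90, had 6.54 and 6.67 in USP8ff_CD4Cre, against 6.24 and 6.84 in USP8ff, so its USP8ff values enclosed the others. Its difference of 0.065 ± 0.22 was -0.23 without USP8ff replicate 1 and -0.024 under quantile normalization, and its second probe differed by -0.055.

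Stip1, which passes clients between HSP70 and HSP90, and Ahsa1, which stimulates the HSP90 ATPase, had the same order of arrays as Hspa8. Stip1 was at 3.20 and 3.44 in USP8ff_CD4Cre, against 2.78 and 3.33 in USP8ff. Ahsa1 was at 5.70 and 5.96 in USP8ff_CD4Cre, against 5.32 and 5.87 in USP8ff. Their differences of 0.27 and 0.24 were -0.004 and -0.042 without USP8ff replicate 1. Hspa4, a second HSP110 family member, had 2.35 and 2.27 in USP8ff_CD4Cre, against 2.21 and 2.20 in USP8ff, and its gap between the USP8ff pools was 0.015. Hsf1, the regulator of the heat shock genes, had 4.59 and 4.70 in USP8ff_CD4Cre, against 4.59 and 4.47 in USP8ff, a difference of 0.12 ± 0.11 (limma adjusted p = 0.81). The probes of these 2 genes disagreed on USP8ff replicate 1. It was below USP8ff replicate 2 on 2 of 3 Hsf1 probes, with gaps of -0.36 and -0.39 on the dimmer probes, and on 2 of 4 Hspa4 probes.

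The gap between the USP8ff pools was therefore read for each gene, as replicate 1 minus replicate 2. It was under -0.5 in 8 chaperones (Hsph1, Hsp90aa1, Dnaja1, Hspa8, Hsp90ab1, Stip1, Ahsa1 and Cct3), or 21.1% of the 38, where 4.27% of all genes (558) were as low. Of the 8, 7 were in the inducible and constitutive cytosolic classes, which hold 12 of the 38 measured genes. Cct3 is in the chaperonin class, whose ring is also cytosolic. The gap of USP8ff_CD4Cre had medians of -0.22 for inducible cytosolic and -0.18 for constitutive cytosolic genes, against -0.40 and -0.55 for the gap of USP8ff. For mitochondrial, chaperonin and ER genes the medians were -0.19, -0.18 and -0.093 in USP8ff_CD4Cre, against -0.16, -0.14 and -0.18 in USP8ff. Over all genes they were -0.0021 in USP8ff_CD4Cre and -0.0082 in USP8ff. The widest class medians were thus those of the inducible and constitutive cytosolic classes in USP8ff. Even so, 4 of their 12 genes had positive USP8ff gaps, namely Hspa1a (0.53), Dnajb1 (0.18), Hsf1 (0.12) and Hspa4 (0.015). The gap was negative in 32 of 38 chaperones in USP8ff_CD4Cre (50.5% of all genes) and in 31 of 38 in USP8ff (51.2% of all genes).

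Values that could move with these gaps were looked at in the same arrays. The immediate early genes, which respond to handling of cells, had mean levels of 2.55 and 2.43 in USP8ff_CD4Cre, against 2.43 and 2.50 in USP8ff, over 8 of 12 genes measured (Fos, Fosb, Ier3 and Atf3 were not). Proliferation genes had a negative median gap in USP8ff_CD4Cre (-0.35, 10 of 10 negative), the same direction as the 38 chaperones (-0.14). In USP8ff their median gap was positive (0.17, 1 of 10 negative), where that of the chaperones was negative (-0.18). USP8ff replicate 1 had the smallest number of probes well above background. The part of any of these in the gaps was not tested.

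**Figure D3:**
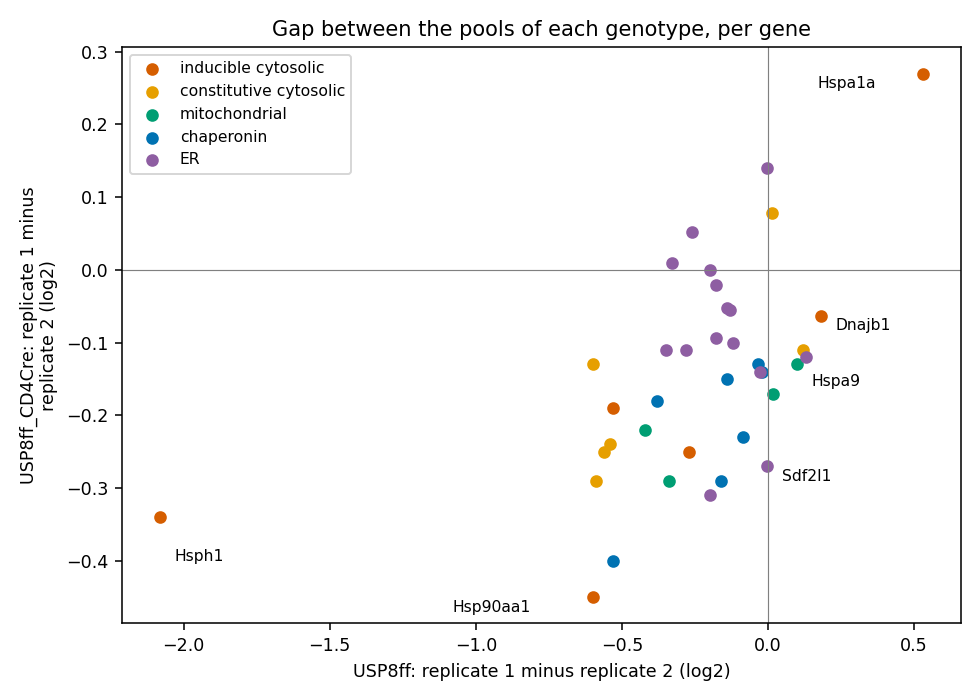
Gap between the 2 pools of each genotype for the 38 measured chaperone genes, replicate 1 minus replicate 2 on the log2 scale, with USP8ff_CD4Cre on the vertical and USP8ff on the horizontal axis; each point is a gene, coloured by class. Hsph1 stands alone at -2.08 on the USP8ff axis, a group of mostly cytosolic genes lies near -0.55, and Hspa1a is farthest to the right at 0.53.

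The mitochondrial chaperones fold proteins that enter the matrix. Their median was 0.23 with 4 of 4 positive, and 0.10 with 3 of 4 positive without USP8ff replicate 1. Hspa9, the HSP70 that pulls proteins through the inner membrane, had 3.71 and 3.83 in USP8ff_CD4Cre, against 3.44 and 3.34 in USP8ff. The groups did not overlap and the pools of each genotype were close. The difference was 0.38 ± 0.11, a fold of 1.3 (limma adjusted p = 0.66), and it was positive on both probes. It lay between 0.32 and 0.44 with each array left out, and was 0.43 without USP8ff replicate 1.

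Hspd1 and Hspe1 are the HSP60 and HSP10 of the matrix folding chamber, and they share the promoter shown above. Hspd1 had 5.14 and 5.43 in USP8ff_CD4Cre, against 4.86 and 5.20 in USP8ff, a difference of 0.26 ± 0.17. Hspe1 had 2.97 and 3.19 in USP8ff_CD4Cre, against 2.67 and 3.09 in USP8ff, a difference of 0.20 ± 0.18. The 4 arrays had the same order in both genes, with the lowest value in USP8ff replicate 1 and the highest in USP8ff_CD4Cre replicate 2. Without USP8ff replicate 1 the differences were 0.091 and -0.012. Trap1, the mitochondrial HSP90, had 1.67 and 1.84 in USP8ff_CD4Cre, against 1.67 and 1.65 in USP8ff, a difference of 0.092 ± 0.11.

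The chaperonin genes encode subunits of the cytosolic TRiC ring, which folds actin and tubulin. They were the most even class. All 7 were positive, between 0.089 (Cct3) and 0.22 (Cct7), with a median of 0.14. In all 7 the lowest value was in USP8ff replicate 1 and the highest in USP8ff_CD4Cre replicate 2. The median was 0.043 without USP8ff replicate 1, with 5 of 7 positive, 0.037 without USP8ff_CD4Cre replicate 2, and at most 0.26 with either of the other arrays left out.

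Cct7 was at 5.57 and 5.71 in USP8ff_CD4Cre, against 5.40 and 5.43 in USP8ff, with no overlap and a difference of 0.22 ± 0.11 (limma adjusted p = 0.70). Cct2 was at 6.50 and 6.64 in USP8ff_CD4Cre, against 6.38 and 6.40 in USP8ff, again with no overlap, a difference of 0.18 ± 0.11. Of its 2 probes only 1 was positive. Cct3 was at 1.86 and 2.26 in USP8ff_CD4Cre, against 1.71 and 2.24 in USP8ff, and leaving out USP8ff replicate 1 gave -0.18 and leaving out USP8ff_CD4Cre replicate 2 gave -0.11. Tcp1, Cct4, Cct5 and Cct8 differed by 0.11 to 0.18, and the groups overlapped in each.

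The ER genes had a median of 0.11 with 13 of 15 positive. Without USP8ff replicate 1 it was 0.022 with 9 positive, and without USP8ff replicate 2 it was 0.21. Hspa5 encodes BiP, the ER HSP70 that holds the sensors of the unfolded protein response in check. Its level was 4.11 and 4.21 in USP8ff_CD4Cre, against 3.91 and 4.02 in USP8ff (mm9, chr2:34631630-34631689). The groups did not overlap, but the difference of 0.20 ± 0.11 did not pass (limma adjusted p = 0.71). It lay between 0.14 and 0.25 with each array left out. Hsp90b1, the ER HSP90, had 5.19 and 5.30 in USP8ff_CD4Cre, against 4.83 and 5.18 in USP8ff, a difference of 0.23 ± 0.15 that was 0.058 without USP8ff replicate 1.

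Sdf2l1, a small ER protein that works with BiP and its DNAJ partners, had the largest difference of the 38 chaperones. It was at 1.13 and 1.40 in USP8ff_CD4Cre, against 0.83 and 0.84 in USP8ff. The USP8ff pools were 0.0027 apart and both below the other genotype. The difference was 0.43 ± 0.13, a fold of 1.35 (limma adjusted p = 0.66), and lay between 0.30 and 0.57 with each array left out. It rests on the only Sdf2l1 probe.

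The glycoprotein folding genes Calr, Canx and Pdia3 differed by 0.11, 0.10 and 0.14, and the disulphide isomerases Pdia4 and Pdia6 by 0.15 and 0.067. For Pdia6 the other 3 probes were negative, so its direction depends on the probe. Dnajc3, an ER DNAJ co-chaperone, differed by 0.11, and Dnajb9, which restrains IRE1, by 0.00081. The other Dnajb9 probes were negative (-0.042 and -0.14), so its direction also depends on the probe. With the probes of each gene averaged, 11 of the 15 ER genes were positive. Hyou1, the HSP110 of the ER, differed by 0.0062. The genes of ER-associated degradation were Edem1 (0.16), Herpud1 (0.048) and Sel1l (-0.056). A second Sel1l probe above background differed by 0.047, so the direction of Sel1l depends on the probe too. The other Edem1 probes differed by 0.027 and 0.0071. Edem1 had 6.00 and 5.99 in USP8ff_CD4Cre, against 5.67 and 6.00 in USP8ff, so that a single pool set its difference, which was -0.0056 without USP8ff replicate 1.

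Xbp1 encodes the transcription factor made active when IRE1 splices its mRNA, and the array reports the gene without telling its spliced forms apart. It had 2.08 and 2.13 in USP8ff_CD4Cre, against 2.21 and 2.36 in USP8ff. It was the only one of the 38 with both USP8ff_CD4Cre arrays below both USP8ff arrays. The difference of -0.18 ± 0.11 did not pass (limma adjusted p = 0.72) and lay between -0.25 and -0.11 with each array left out.

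Genes with and without the promoter elements overlapped in their differences. The 6 ER genes with the ER stress response element, among them the 4 whose stretches are shown, had a median of 0.11 (0.067 to 0.23). The 8 ER genes with a window but without it had 0.094 (-0.18 to 0.43), and both extremes of the ER class, Sdf2l1 and Xbp1, were among these. Among the measured inducible, constitutive and mitochondrial genes that have a window, the 6 with a pair of heat shock units had a median of 0.29 (0.073 to 0.39). The 5 without had 0.11 (-0.10 to 0.27). Their median USP8ff gaps were -0.38 with a pair and 0.015 without, but the gaps overlapped. They ran from -2.08 (Hsph1) to 0.53 (Hspa1a) with a pair, and from -0.56 (Ahsa1) to 0.18 (Dnajb1) without. Hsp90aa1, Hsp90ab1, Hspa8, Hsf1 and Hspa9 have no window here and are in neither group, and the chaperonin genes Cct2 (0.18) and Cct5 (0.11), which hold a pair, were not counted. These are descriptions, since the genes with and without an element also differ in class.

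**Figure D4:**
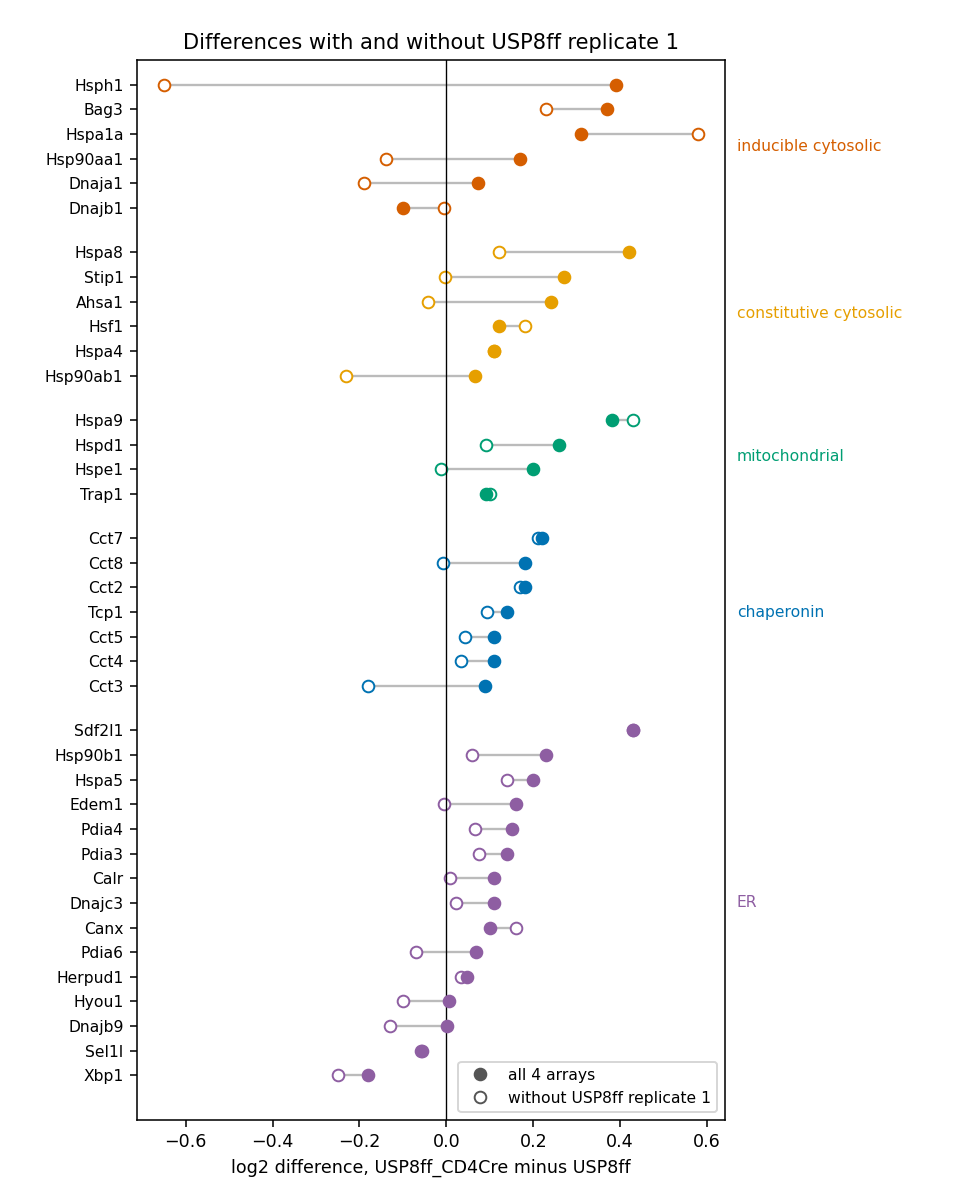
Log2 difference of each measured chaperone gene, USP8ff_CD4Cre minus USP8ff, with all 4 arrays (filled) and without USP8ff replicate 1 (open), grouped by class and ordered by the difference. Most open points lie left of the filled ones, Hsph1 crosses from 0.39 to -0.65, and Hspa9 and Sdf2l1 are both at 0.43 without that array.

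Other folding genes, listed by function, were read from the same fit. Of 29 further cytosolic chaperones and co-chaperones 26 were measured, with a median of 0.12 and 23 positive, and without USP8ff replicate 1 the median was 0.049 and 14 were positive. Hspa2, an HSP70 best known from male germ cells, had the largest difference. It was at -0.94 and -0.91 in USP8ff_CD4Cre, against -1.51 and -1.39 in USP8ff, with no overlap, a difference of 0.52 ± 0.11 (limma adjusted p = 0.66) and 0.47 without USP8ff replicate 1. Dnajb4, an HSP40, had the most negative, with 2.67 and 2.84 in USP8ff_CD4Cre, against 2.89 and 3.23 in USP8ff (-0.30 ± 0.16). St13 and Chordc1, co-chaperones of HSP70 and HSP90, had USP8ff gaps of -0.89 and -0.65, and their differences of 0.19 and 0.27 were -0.25 and -0.06 without USP8ff replicate 1. These 2 were chosen after their values were seen, as the most negative USP8ff gaps of the list. The 26 measured genes had a median USP8ff gap of -0.13, with a range from -0.89 to 0.64, and a median USP8ff_CD4Cre gap of -0.12.

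Of 10 further mitochondrial folding and protease genes all were measured and 5 were positive, with a median of 0.029. The largest difference was in Grpel1, the nucleotide exchange factor of Hspa9. It had 3.89 and 3.96 in USP8ff_CD4Cre, against 3.69 and 3.76 in USP8ff, a difference of 0.20 ± 0.11 (limma adjusted p = 0.70). Of 32 further ER genes 29 were measured and 19 were positive, with a median of 0.026. Ero1a, the oxidase that recharges disulphide isomerase, was at 0.078 and 0.14 in USP8ff_CD4Cre, against -0.17 and -0.41 in USP8ff. Its groups did not overlap, with a difference of 0.40 ± 0.13 (limma adjusted p = 0.66). Wfs1, an ER membrane protein, had the most negative difference (-0.32 ± 0.27), at -1.92 and -1.73 in USP8ff_CD4Cre, against -1.90 and -1.12 in USP8ff. The stress transcription factors Atf4 and Ddit3 differed by 0.022 and -0.11. Across the 3 lists 2 of 65 measured genes had an unadjusted p under 0.05, both higher in USP8ff_CD4Cre (3.08%, where 3.97% of all genes were), and none was called. The authors' deposited table lists 78 probes from their own comparison of the genotypes, and 0 of them belong to the 40 chaperone genes. The table holds 0.189% of all probes, so little can be read from that 0.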

How the data were processed

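Gene expression was measured in 4 sorted samples of DP thymocytes, 2 for each genotype, grouped by the genotype in the labels. Per the labels, 500 ng of RNA per sample was labelled with Cy3. The deposited scanner files hold spot intensities, and per the file headers they were made with Feature Extraction 10.7.3.1, which subtracts background and detrends each array but does not normalize between arrays. The authors' deposited table gives an absolute fold and a p-value for 78 probes, with no named test or direction of comparison in the sources used here. It was read only for which probes it lists. A further deposited table has 4 columns whose names match no sample label, and they were not used.

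From each spot's processed signal the log2 value was taken and the 75th percentile of that array over 43379 non-control spots was subtracted. Outlier spots were dropped (17 probes lost), and spots of a probe averaged. Kept probes were those flagged well above background on both arrays of a genotype (19038 probes, 46.2%), and the brightest kept probe stood for a gene. Names came from RefSeq accessions for 26690 probes and from the array design for 14484. Probe positions are on mm9.

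The genotypes were set against each other in R 4.3.3 by limma 3.58.1, with lmFit and eBayes, fitted and Benjamini-Hochberg adjusted over 13062 genes, with a threshold of 0.05, after the scripts were tested on simulated data. SE are those of limma's moderated fit, and its 2 residual degrees of freedom limit the precision. An exact permutation test of 2 samples against 2 cannot go below p = 0.333 and was not used. Classes are described by counts and medians, with no test. The members, classes and other gene lists were chosen with earlier results of these data known. Values per array are given, in each class, for the genes with the largest and the smallest difference and the highest mean signal, for genes with an unadjusted p under 0.05, and for Hspa1a, Hspa1b, Hspa5, Hsf1 and Xbp1. Other genes were named after their values were seen. The settings varied one at a time were the scaling (quantile, or the median of the array), the background (normexp, offset 50), the filter (dropped, or applied to all 4 arrays), the probe rule (averaged probes, or each probe tested), the replicate number as a block, the eBayes trend, the outlier spots and each array in turn. Plots used Python 3.11.15 and matplotlib 3.10.9.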

Additional observations from a re-analysis of the deposited data

How the results depend on the processing

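No alternative called any gene. Scaling, background, filter, probe rule, replicate block, eBayes trend, kept outlier spots, single probes and each array left out all gave 0 genes at an adjusted p under 0.05 in limma, where all 4 arrays gave 970 genes at an unadjusted p under 0.05 and a smallest adjusted p of 0.29. The smallest adjusted p of any alternative was 0.085, under median scaling. The samples share replicate numbers in the labels but nothing says that a number marks a pair, and with 2 pairs the correlation of same-numbered deviations (0.32 across genes) is a hint from the data only. With the replicate block 0 genes were called, 1338 had an unadjusted p under 0.05, and the smallest adjusted p was 0.091. With an array left out the lone sample of its group is assumed to vary like the other group. Leaving out each array in turn moved the class medians most. They ranged from -0.07 to 0.40 for inducible cytosolic, 0.055 to 0.44 for constitutive cytosolic, 0.10 to 0.37 for mitochondrial, 0.037 to 0.26 for chaperonin and 0.022 to 0.21 for ER genes. Without USP8ff replicate 1 was the lowest of the 4 for the inducible, constitutive and ER classes. Of the 38 measured chaperones 21 kept 1 sign with all arrays and with each array left out (54% of all genes did), and 17 did not. Among the 17 genes that the naming rule picked, the direction turned with an array left out for Hsph1 (-0.65 to 1.43), Hsp90aa1 (-0.14 to 0.47), Hsp90ab1 (-0.23 to 0.36), Cct3 (-0.18 to 0.36) and Edem1 (-0.0056 to 0.32), and for Hsp90ab1 also under quantile normalization (-0.024); the causes were not tested. Quantile normalization lowered all 5 class medians, to between 0.049 and 0.20. Over all alternatives, 212 values of the genes picked by that rule kept their direction and 9 turned. The 212 overstates stability, since the replicate block and the eBayes trend cannot change a log2 difference in this design. The filter settings and the kept outlier spots also left the differences of these genes as they were. Dim probes limit Hspa1a, Hspa1b and Hspb1, and the number of arrays limits the rest.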
